A study of Mus musculus with 4 samples.

Results

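The expression of 9 genes with a reported part in the leukemia stem cells of chronic myeloid leukemia (CML) was compared between WT and Hif1a-/- leukemia stem cells. The genes, chosen by name, were Ptch1, Smo, Gli1, Ctnnb1, Msr1, Scd1, Blk, Abl1 and Bcr, and all 9 were measured, out of 19938 genes in all. Each gene was read from the probe set with the highest mean that carried only its symbol. In the mouse model behind these data, marrow of C57BL/6 (B6) or Hif1a-/- donors given 5-fluorouracil was infected with a retrovirus for BCR-ABL and green fluorescent protein and put into B6 recipients. Fluorescent cells without lineage markers and with c-Kit and Sca-1 were sorted from recipient marrow 14 days later. There were 2 WT and 2 Hif1a-/- samples, all labelled with the C57BL/6 (B6) strain and an age of 8 weeks, each on 1 array. All 4 samples carried BCR-ABL, so no sample shows the genes without the oncogene. The labels call the samples biological replicates and name no separate animals, so the p-values cover the spread between these samples alone, which may be technical. They do not say which part of Hif1a is deleted, in which cells, or by what means.

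BCR-ABL is the fusion kinase that drives CML, made when the genes BCR and ABL1 are joined by a translocation, and leukemia stem cells are the small fraction that renews the disease and outlasts kinase inhibitors. In mouse models of CML the beta-catenin and Hedgehog pathways have been reported to sustain these cells, while the scavenger receptor Msr1, the kinase Blk and the desaturase Scd1 have been reported to restrain them. Hif1a encodes the part of the transcription factor HIF-1 that oxygen destabilises, and HIF-1 has itself been reported to be needed by CML stem cells.

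None of the 9 regulators was called different between Hif1a-/- and WT leukemia stem cells, and in all 9 the arrays of the genotypes overlapped. The differences in means (Hif1a-/- minus WT) ran from -0.17 for Bcr to 0.17 for Ptch1 on the log2 scale, a 1.13-fold change at most in either direction. By limma 0 of the 9 passed an adjusted p of 0.05 and 0 had an unadjusted p under 0.05. Across all genes, 0% passed the adjusted threshold and 1.68% the unadjusted one, so a count of 0 among 9 lies near the background. Groups that do not overlap were seen in 24.8% of all genes. The median absolute difference was 0.075 over the 9 regulators and 0.086 over all genes. With 2 arrays a genotype, the smallest two-sided p that exact permutation allows is 0.333. The 95% intervals of limma lay inside a 2-fold change for all 9 genes. In limma each gene's variance is moderated by that of all genes (2 residual and 4.46 prior degrees of freedom). A gene that varied widely, as Smo did (SD of 0.57 in WT and 0.15 in Hif1a-/-), has a narrower interval than its own spread would give. These intervals alone therefore do not exclude a 2-fold change. The interval of Smo was the widest and reached from 0.61 to 1.47 times the WT level.

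**Figure D1:**
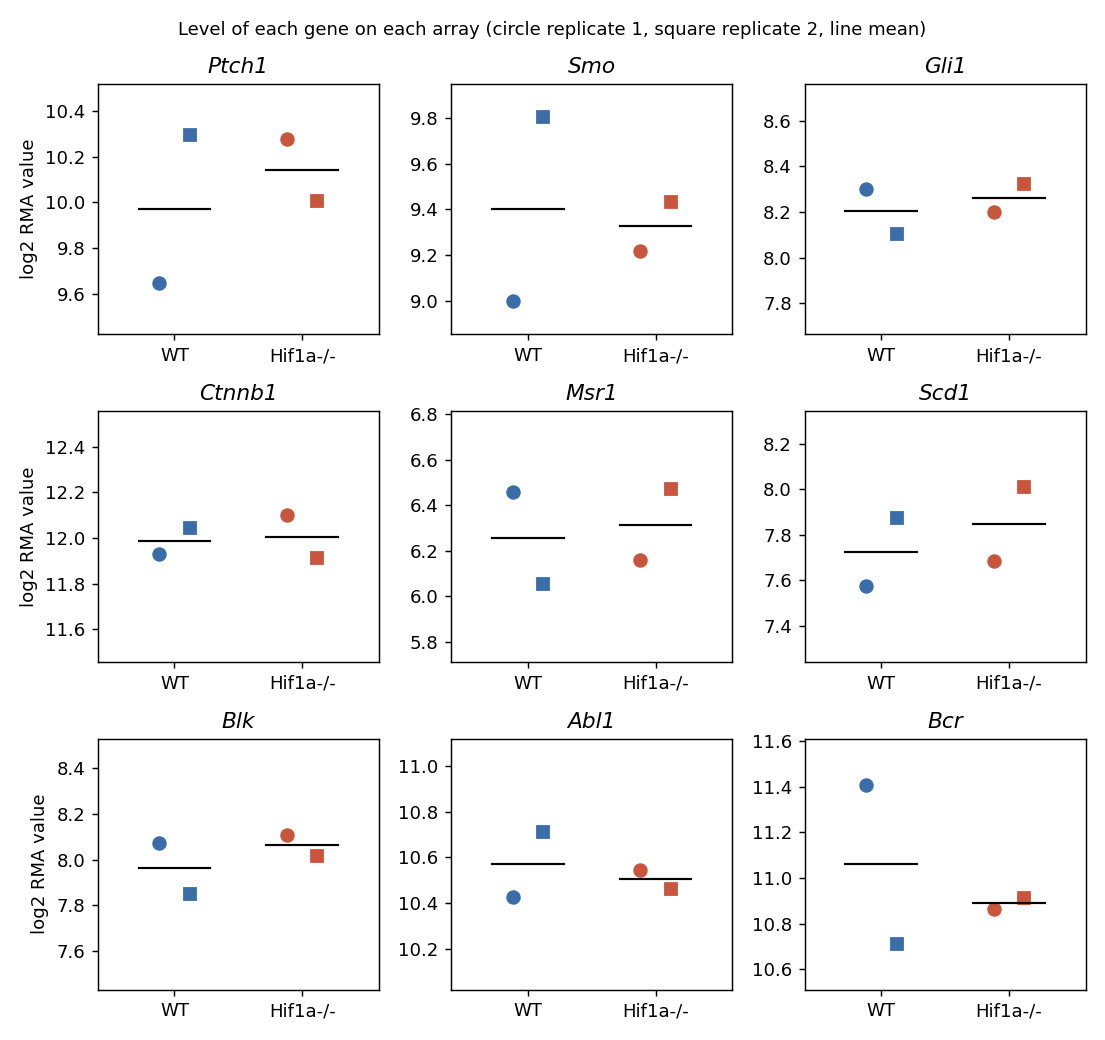
Level of each of the 9 genes on each array, in log2 RMA values, with WT arrays on the left of each panel and Hif1a-/- arrays on the right. Circles are replicate 1, squares replicate 2 and lines group means, and every panel spans the same height. In every panel the points of the genotypes overlap, and the WT points of Ptch1, Smo and Bcr lie farthest apart.

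Hif1a itself read 11.34 and 11.50 on WT replicates 1 and 2 and 11.25 and 11.39 on Hif1a-/- replicates 1 and 2. These values overlap. Probes outside a deleted part would still read, so they check the genotype labels only weakly. The WT arrays stood farther apart (Pearson r of 0.981 across genes, which are not independent replicates) than the Hif1a-/- arrays (0.995). The mean of 9 mature neutrophil markers was 13.03 on WT replicate 1, 11.25 on WT replicate 2, 12.12 on Hif1a-/- replicate 1 and 12.03 on Hif1a-/- replicate 2. All 9 read lower on WT replicate 2 than on WT replicate 1, though mature neutrophils were to be removed by the lineage gate. Kit, which encodes the sorted marker c-Kit, read 10.32 and 11.07 on the WT arrays and 10.95 and 10.61 on the Hif1a-/- arrays. Of the other marker lists, 11 B cell markers had means of 7.86 to 8.64 by array, 11 macrophage markers 8.48 to 8.88, 7 T cell markers 7.33 to 7.52, and 13 stromal, endothelial and fat cell markers 8.05 to 8.20. WT replicate 1 had the highest mean of the B cell and macrophage markers. The defining B cell gene Pax5 and the macrophage gene Adgre1 read 8.57 and 11.99 there, against 8.14 and 10.90 on WT replicate 2. The Hif1a-/- mean of Pax5, 8.497, lay close to its value on WT replicate 1. Between WT replicates 2 and 1 the median gap was -0.43 over the B cell markers and -0.39 over the macrophage markers. Of the 11 macrophage markers 1, Csf1r, went the other way, with 8.68 on WT replicate 1 and 9.04 on WT replicate 2. Pax5 and Csf1r were picked on sight of their values. In bulk samples, fewer cells of a type and less RNA per cell cannot be told apart.

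HIF-1 binds a short core of the letters ACGTG or GCGTG, and the deposited arrays carry no binding data, so the promoters are shown only as the sequence context of the measured genes. RefSeq promoter windows of build GRCm38.p6, from 250 bases before to 50 after a gene's start, were found for 5 of the 9 genes. The windows were 7 in all, and 6 of them held GCGTG on either strand, at least 1 for each of Abl1, Bcr, Ctnnb1, Ptch1 and Smo. The windows of Ctnnb1 overlap and hold the same site, 70 bases before 1 start and 248 bases before the other, so it counts in both. None of the 7 windows held ACGTG. Among all 32851 windows 32.4% held GCGTG, 19.6% ACGTG and 43.8% either. The letters are short and common in promoters rich in G and C, and a match is a description of the sequence, not a binding site. The stretches of 100 bases that hold the matches before the start are shown for 4 genes, 5′ to 3′ on the gene's plus strand, with the core in capitals (CACGC is GCGTG on the opposite strand). That of Ptch1 lies 23 bases after the start and is not shown. They are Abl1 at chr2:31759778-31759877, Bcr at chr10:75060744-75060843, Ctnnb1 at chr9:120933282-120933381 and Smo at chr6:29735247-29735346.
Abl1: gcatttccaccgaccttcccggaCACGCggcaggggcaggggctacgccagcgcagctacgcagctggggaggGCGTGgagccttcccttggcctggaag
Bcr: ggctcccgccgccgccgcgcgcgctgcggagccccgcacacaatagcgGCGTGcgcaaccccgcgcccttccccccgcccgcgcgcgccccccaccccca
Ctnnb1: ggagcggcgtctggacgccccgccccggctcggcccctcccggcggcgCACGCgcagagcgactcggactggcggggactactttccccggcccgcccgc
Smo: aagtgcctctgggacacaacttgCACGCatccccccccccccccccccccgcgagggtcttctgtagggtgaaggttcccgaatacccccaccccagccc
Abl1 carries 2 matches, 138 and 88 bases before the start. Bcr carries 1 at 104 bases, Ctnnb1 1 at 70 bases and Smo 1 at 227 bases. These 4 genes differed between genotypes by -0.066, -0.17, 0.021 and -0.075 on the log2 scale, with intervals that included 0.

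In the Hedgehog pathway, the receptor Ptch1 holds back the membrane protein Smo until a ligand binds, after which Smo lets the Gli transcription factors act. Ptch1 and Gli1 are themselves target genes of the pathway, so their RNA is often read as its output. Ptch1 read 9.65 on WT replicate 1, 10.29 on WT replicate 2, 10.28 on Hif1a-/- replicate 1 and 10.01 on Hif1a-/- replicate 2. WT replicate 1 alone was low, and both Hif1a-/- values lay between the WT values. The difference was 0.17 ± 0.23 (SE), with a 95% interval from -0.38 to 0.72.

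Smo, the transducer of the pathway and the target of Hedgehog inhibitors, read 8.999 and 9.80 on WT replicates 1 and 2 and 9.22 and 9.44 on Hif1a-/- replicates 1 and 2. The WT arrays held both the lowest and the highest value. The WT mean was 9.40 ± 0.57 (SD, n = 2) and the Hif1a-/- mean 9.33 ± 0.15 (SD, n = 2), a difference of -0.075 ± 0.26 (SE) with an interval from -0.70 to 0.55. Gli1, the transcription factor, read 8.30 and 8.10 in WT and 8.20 and 8.32 in Hif1a-/- cells. Its values were close together on all 4 arrays, and the difference was 0.058 ± 0.14 (SE), from -0.27 to 0.38. The Gli1 means of 8.20 in WT and 8.26 in Hif1a-/- cells lay below 8.55, the median of gene means. A flat reading at that level does not show that the output of the pathway was unchanged.

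Of 31 listed Hedgehog genes 29 were measured, among them the 3 above. Their median difference was 0.052, beside 0.034 over all genes, and 19 had a higher and 10 a lower mean in Hif1a-/- cells, where 61.4% of all genes had a higher one. In 2 genes the Hif1a-/- values were both above the WT values and in 6 both below, beside 15.7% and 9.05% of all genes. None had an unadjusted limma p under 0.05, near the 1.68% of all genes. The members with the smallest p were Kif3a, a motor of the primary cilium through which Hedgehog signals pass (-0.30, p 0.110 by limma), the co-receptor Cdon (0.24, p 0.111) and the ligand acyltransferase Hhat (0.23, p 0.259). Kif3a read 8.08 and 8.47 in WT and 7.96 and 7.99 in Hif1a-/- cells, and without WT replicate 2 it differed by -0.10. Cdon gave 0.15 without Hif1a-/- replicate 1, and Hhat gave -0.029 without WT replicate 1. The 3 ligands Shh, Ihh and Dhh differed by 0.052, 0.13 and -0.15, and the repressor Sufu by 0.047. Of these 4, Dhh alone kept its sign when each array was left out. Gli2 differed by 0.11 and Gli3 by 0.17, with p of 0.453 and 0.298 by limma, and without WT replicate 2 the differences of Gli1, Gli2 and Gli3 were -0.040, -0.024 and 0.0036. The list median was -0.012 without WT replicate 2 and -0.0034 without Hif1a-/- replicate 2. The ligands, Sufu, Gli2 and Gli3 were picked on sight of their values.

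Ctnnb1 encodes beta-catenin, which joins cell contacts and, when Wnt signals stop its breakdown, activates transcription with the TCF and LEF factors. Breakdown acts on the protein, so the RNA level does not report the activity of the pathway. Ctnnb1 read 11.93 and 12.04 on WT replicates 1 and 2 and 12.10 and 11.91 on Hif1a-/- replicates 1 and 2. The 4 values spanned 0.19, the narrowest span among the 9 genes, and Hif1a-/- cells held both ends. The means were 11.99 ± 0.08 (SD, n = 2) and 12.01 ± 0.13 (SD, n = 2), and the difference was 0.021 ± 0.13 (SE), from -0.30 to 0.34.

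Around Ctnnb1, 65 of 66 listed genes of the Wnt and beta-catenin pathway were measured. Their median difference was 0.057, with 50 higher and 15 lower means (61.4% of all genes were higher and 38.6% lower), and 16 lay above and 8 below without overlap, beside 15.7% and 9.05% of all genes. By limma 1 had an unadjusted p under 0.05, beside 1.68% of all genes, and 0 passed when adjusted over all genes. That gene was Lef1, a partner through which beta-catenin binds DNA. Of the other listed TCF factors, Tcf7l1 differed by 0.11 without overlap and Tcf7l2 by -0.091 with overlap, and Tcf7 was not measured. Lef1 read 8.77 and 8.75 in WT and 8.36 and 8.18 in Hif1a-/- cells, so both Hif1a-/- values lay below both WT values. Its difference was -0.49 ± 0.13 (SE), with limma p of 0.00782 unadjusted and 0.999 adjusted, and it ranged from -0.58 to -0.40 when each array was left out in turn. Jup, which encodes plakoglobin, the closest relative of beta-catenin, differed by -0.31 (p 0.0549 by limma), and its groups did not overlap either. Notum, a secreted Wnt antagonist and target gene, differed by 0.27 (p 0.0773 by limma). Of 9 target genes 8 had a higher mean in Hif1a-/- cells and 5 lay above without overlap, beside 61.4% and 15.7% of all genes. Those 5 were Nkd1 (0.029), Sp5 (0.074), Rnf43 (0.13), Lgr5 (0.25) and Notum (0.27). Their WT means ran from 7.17 for Lgr5 to 8.78 for Nkd1, where the median over all genes was 8.55. The other targets Axin2, Znrf3, Ccnd1 and Myc overlapped, at WT means of 8.49, 8.95, 9.99 and 12.83. By limma, unadjusted p was under 0.05 for 0 of the 9 targets. The much used target Axin2 differed by 0.033, Myc by 0.092 and Ccnd1 by -0.14. Each turned when 1 WT array was left out, Axin2 to -0.10 and Ccnd1 to 0.14 without replicate 2 and Myc to -0.16 without replicate 1. The last 3 were picked on sight of their values.

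Msr1 encodes the class A scavenger receptor of macrophages, which takes up modified lipoproteins, and was reported to restrain CML stem cells through the PI3K and AKT pathway and beta-catenin. Msr1 read 6.46 on WT replicate 1, 6.05 on WT replicate 2, 6.16 on Hif1a-/- replicate 1 and 6.47 on Hif1a-/- replicate 2. Each genotype held 1 higher and 1 lower value. The difference was 0.057 ± 0.19 (SE), from -0.39 to 0.50. All 4 values lay below 7.48, the 25th percentile of all values tested, and RMA draws differences of dim probe sets together, so a difference of Msr1 may be understated.

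Of the 17 listed scavenger receptors all were measured, and their median difference was 0.021. By limma 2 of the 17 had an unadjusted p under 0.05, both lower, beside 1.68% of all genes in either direction and 0.978% lower. When adjusted over all genes, 0 passed. Cd36, a fatty acid and lipoprotein receptor of class B, read 8.19 and 8.11 in WT and 7.49 and 7.51 in Hif1a-/- cells, a difference of -0.65 ± 0.12 (SE) with limma p of 0.00136 unadjusted and 0.999 adjusted. It stayed between -0.69 and -0.61 when each array was left out. Cxcl16, a chemokine that also acts as a scavenger receptor, differed by -0.33 (p 0.0492 by limma), and by -0.21 without WT replicate 2. The macrophage marker Cd68 differed by -0.32 with groups that overlapped, and by -0.039 without Hif1a-/- replicate 1. The macrophage marker list had a median difference of -0.11 with 0 of 11 genes free of overlap, beside 24.8% of all genes. The part of that list in these values was not tested. The class A relatives Marco, Scara5 and Colec12 had differences of 0.14, -0.0060 and 0.080 and were picked on sight of these values. Marco gave 0.036 without WT replicate 2 and Scara5 0.15 without WT replicate 1. The list median had no stable sign: it was -0.094 without WT replicate 2, -0.039 after a second quantile normalization, -0.0052 with centred array medians, -0.0060 over genes above the 25th percentile and -0.047 over genes above the median level.

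Of 8 listed genes of the PI3K and AKT pathway 7 were measured, and 0 had an unadjusted limma p under 0.05, near the 1.68% of all genes. All 7 had a lower mean, beside 38.6% of all genes, and 4 had Hif1a-/- values that were both below the WT values, Gsk3b, Pik3ca, Pik3r1 and Pik3cd, beside 9.05% of all genes. The difference was -0.22 for Pik3r1, the regulatory subunit, and -0.18 for the leukocyte subunit Pik3cd, with unadjusted limma p of 0.113 and 0.237. Pik3cd differed by -0.068 without WT replicate 1. Akt1 and Akt2 differed by -0.012 and -0.032. The sign turned for Akt1 without WT replicate 2 (0.010), and for Akt2 and Pik3cb without WT replicate 1 (0.0105 and 0.069). Gsk3b, Pik3ca, Pik3cb, Akt1 and Akt2 were picked on sight of their values.

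Scd1 is the stearoyl-CoA desaturase that puts the first double bond into saturated fatty acids. Scd1 read 7.57 and 7.87 on WT replicates 1 and 2 and 7.69 and 8.01 on Hif1a-/- replicates 1 and 2. In both genotypes replicate 2 was higher, by 0.30 and 0.32, and the values interleaved. The difference was 0.12 ± 0.17 (SE), from -0.29 to 0.53, and Scd1 was 1 of 2 regulators, with Ctnnb1, whose Hif1a-/- arrays lay farther apart than their WT arrays.

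Among 27 measured of 30 genes for fatty acid synthesis and desaturation, the median difference was 0.055 (-0.027 without WT replicate 1). There were 18 higher and 9 lower means, beside 61.4% and 38.6% of all genes. By limma 1 had an unadjusted p under 0.05, beside 1.68% of all genes, and 0 passed when adjusted over all genes. This was Elovl7, an elongase of long saturated chains, which read 9.11 and 9.04 in WT and 8.55 and 8.63 in Hif1a-/- cells, a difference of -0.48 ± 0.12 (SE) with an unadjusted limma p of 0.00681. It stayed between -0.52 and -0.44 when each array was left out. Acacb, a carboxylase that makes malonyl-CoA, differed by 0.17 (p 0.206 by limma). The elongase Elovl3 differed by -0.33 (p 0.219), and by 0.024 without WT replicate 1. The close relative Scd2 read 10.68 and 11.97 in WT and 11.29 and 11.72 in Hif1a-/- cells, a spread of 1.30 between the WT arrays beside a difference of 0.18 between genotypes (-0.47 without WT replicate 1 and 0.83 without WT replicate 2). Scd3 and Scd4 differed by 0.12 and -0.13 with groups that did not overlap, and limma p of 0.356 and 0.314. Scd1 and its relatives are similar in sequence, so probe sets may read each other's RNA in part. Bcl2, a survival gene tied to Scd1 in CML, read 10.32 and 11.73 in WT and 10.55 and 11.11 in Hif1a-/- cells, a difference of -0.19 that was 0.51 without WT replicate 2. Scd3, Scd4 and Bcl2 were picked on sight of their values.

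Blk is a kinase of the Src family best known from B cells, where Pax5 activates it, and was reported to restrain CML stem cells through the cell cycle inhibitor p27, the product of Cdkn1b. Blk read 8.07 on WT replicate 1, 7.85 on WT replicate 2, 8.11 on Hif1a-/- replicate 1 and 8.02 on Hif1a-/- replicate 2. WT replicate 2 alone was lower than the rest. The means were 7.96 ± 0.16 (SD, n = 2) and 8.06 ± 0.07 (SD, n = 2), and the difference was 0.10 ± 0.14 (SE), from -0.23 to 0.43. All 11 measured B cell markers were lower on WT replicate 2 than on WT replicate 1, with a median difference of -0.43, and their part in the level of Blk was not tested.

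Pax5 itself differed by 0.14 and the early B cell factor Ebf1 by -0.69, the latter with WT values of 9.14 and 7.48. Pax5 gave -0.076 without WT replicate 2, and Ebf1 gave 0.14 without WT replicate 1. Cdkn1b read 10.42 and 10.19 in WT and 10.12 and 10.01 in Hif1a-/- cells, a difference of -0.24 ± 0.14 (SE) with an unadjusted limma p of 0.137, without overlap, and of -0.12 without WT replicate 1. Those values are from the brighter of its 2 probe sets, and the mean of both sets differed by -0.42. Of 9 Src family kinases 6 were measured, 3 with a higher and 3 with a lower mean. Src differed by -0.15 (p 0.306 by limma), and by -0.048 without Hif1a-/- replicate 1. The family's regulators Ptprc, the phosphatase CD45, and Pag1, an adaptor that recruits the inhibitory kinase Csk, differed by -0.39 and -0.34, with limma p of 0.0616 and 0.181. Without WT replicate 1 they differed by -0.16 and -0.012. In the list of kinases and regulators 0 of 10 genes had an unadjusted limma p under 0.05, near the 1.68% of all genes. The median difference was -0.043 (0.024 without WT replicate 1). Pax5 and Ebf1 were picked on sight of their values.

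Abl1 and Bcr are the mouse counterparts of the genes joined in the BCR-ABL oncogene. The kinase Abl1 acts on the actin skeleton and in DNA damage signalling, and Bcr carries a kinase domain and regulates small GTPases. All 4 samples carried the retroviral fusion, and which part of these signals came from it cannot be told apart here. Abl1 read 10.43 and 10.71 on WT replicates 1 and 2 and 10.54 and 10.46 on Hif1a-/- replicates 1 and 2. Both Hif1a-/- values lay between the WT values, and the difference was -0.066 ± 0.14 (SE), from -0.41 to 0.28.

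Bcr read 11.41 on WT replicate 1, 10.71 on WT replicate 2, 10.86 on Hif1a-/- replicate 1 and 10.91 on Hif1a-/- replicate 2. WT replicate 1 alone was high, while the Hif1a-/- arrays differed by 0.051. The difference between genotypes was -0.17 ± 0.23 (SE), from -0.72 to 0.38. Bcr was the only 1 of the 9 with a further probe set. That set read 10.67 and 10.43 in WT and 10.33 and 10.48 in Hif1a-/- cells, again highest on WT replicate 1, with a smaller gap of 0.24 between the WT arrays and a difference of -0.14 ± 0.14 (SE) between genotypes. The paralogs showed WT gaps in the same directions as their relatives: Abl2 was 0.46 higher and Abr 0.49 lower on WT replicate 2 than on WT replicate 1, with genotype differences of -0.027 and -0.088 that turned to 0.20 without WT replicate 2 for Abl2 and to 0.16 without WT replicate 1 for Abr.

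All 22 genes listed around Abl and Bcr signalling were measured, with a median difference of -0.050. By limma 0 had an unadjusted p under 0.05, near the 1.68% of all genes. Gab1, a docking protein downstream of receptor kinases, differed by 0.28 (p 0.0589 by limma) and Dok1, an adaptor phosphorylated by BCR-ABL, by 0.21 (p 0.162), both with groups that did not overlap. Dok1 gave 0.11 without Hif1a-/- replicate 1. Rin1, an activator of Abl kinases, differed by 0.16 (p 0.318), and by 0.043 without WT replicate 2. Gab2, which BCR-ABL needs for transformation, Crkl, one of its main substrates, and the transcription factors Stat5a and Stat5b differed by 0.065, 0.014, 0.13 and 0.027, and were picked on sight of their values. Of these 4, Stat5a alone kept its sign when each array was left out, with 0.0027 without WT replicate 1. Without WT replicate 1 the list median was 0.013, and without Hif1a-/- replicate 2 it was 0.0042.

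**Figure D2:**
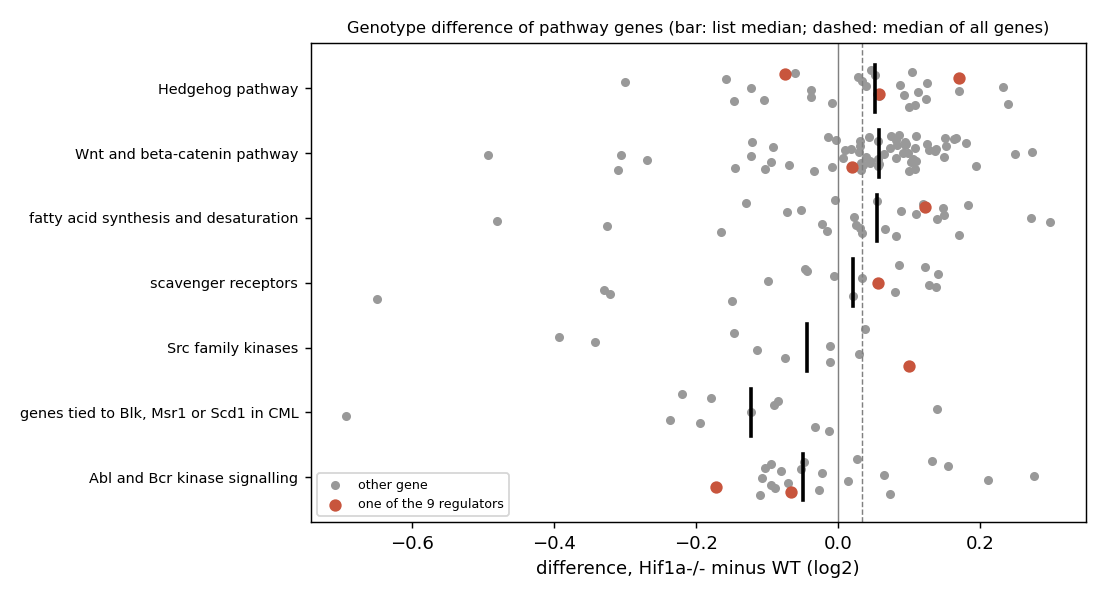
Difference between genotypes (Hif1a-/- minus WT, log2) of every measured gene of the 7 pathway lists, 1 point a gene, with the 9 regulators in red, list medians as black bars and the median of all genes (0.034) dashed. List medians lie between -0.12 and 0.057, and Cd36 (-0.65), Lef1 (-0.49) and Elovl7 (-0.48) lie at the far left of their lists.

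Across the 7 lists, 177 of 189 different genes were measured. Of these 0 passed an adjusted p of 0.05 and 4 had an unadjusted limma p under 0.05, beside 1.68% of all genes in either direction. All 4 were lower in Hif1a-/- cells, beside 0.978% of all genes in that direction. They were Cd36, Elovl7, Lef1 and Cxcl16, none of them 1 of the 9 regulators.

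The WT samples differed from each other by more than the genotypes did in all 9 regulators, as in 75.5% of all genes. Between WT replicates 2 and 1 the gap was 0.81 for Smo, -0.70 for Bcr, 0.65 for Ptch1 and -0.40 for Msr1. The median absolute gap was 0.30 over the 9 genes and 0.19 over all genes. Smo had a larger gap than 96.6% of all genes, Bcr than 94.9% and Ptch1 than 93.7%. The Hif1a-/- samples also differed by more than the genotypes did in 7 of the 9, all but Blk and Bcr and as in 57% of all genes, with a median gap of 0.19, against 0.11 over all genes. In Ptch1, Smo, Abl1 and Bcr the WT values lay on either side of both Hif1a-/- values, as in 32.9% of all genes.

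**Figure D3:**
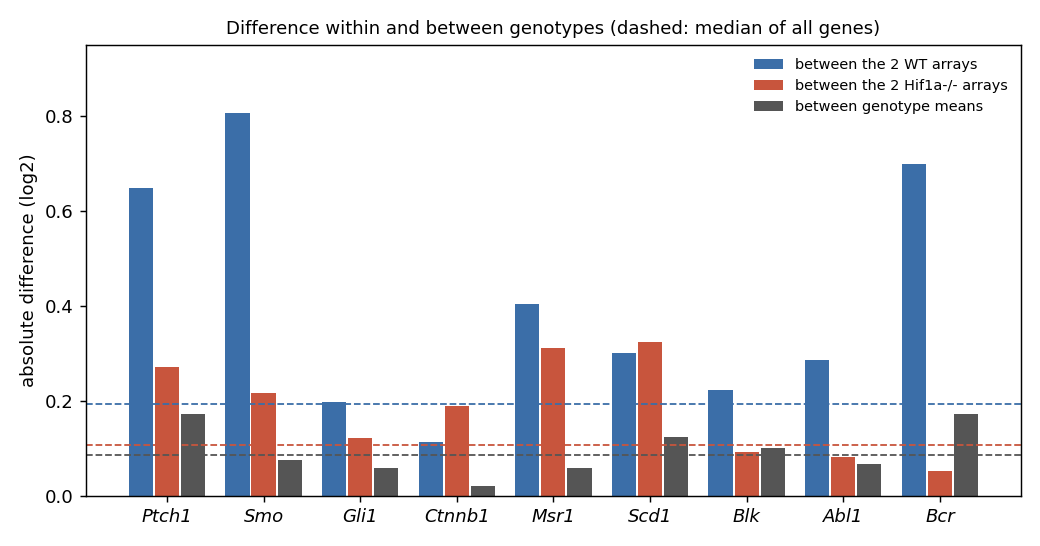
Absolute difference (log2) for each of the 9 genes between the WT arrays (blue), between the Hif1a-/- arrays (red) and between genotype means (grey), with the median of all genes dashed in the same colour. The blue bar is above the grey bar for every gene, and those of Smo (0.81), Bcr (0.70) and Ptch1 (0.65) are the tallest.

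Smo was lowest where the neutrophil markers were highest, on WT replicate 1, and highest where they were lowest, on WT replicate 2. Bcr was highest on WT replicate 1 and lowest on WT replicate 2, as the neutrophil markers were, and Ptch1 followed the order of Kit, with WT replicate 1 lowest, then Hif1a-/- replicate 2, Hif1a-/- replicate 1 and WT replicate 2. These are orders over 4 arrays, and the part of other cells in the levels was not tested.

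**Figure D4:**
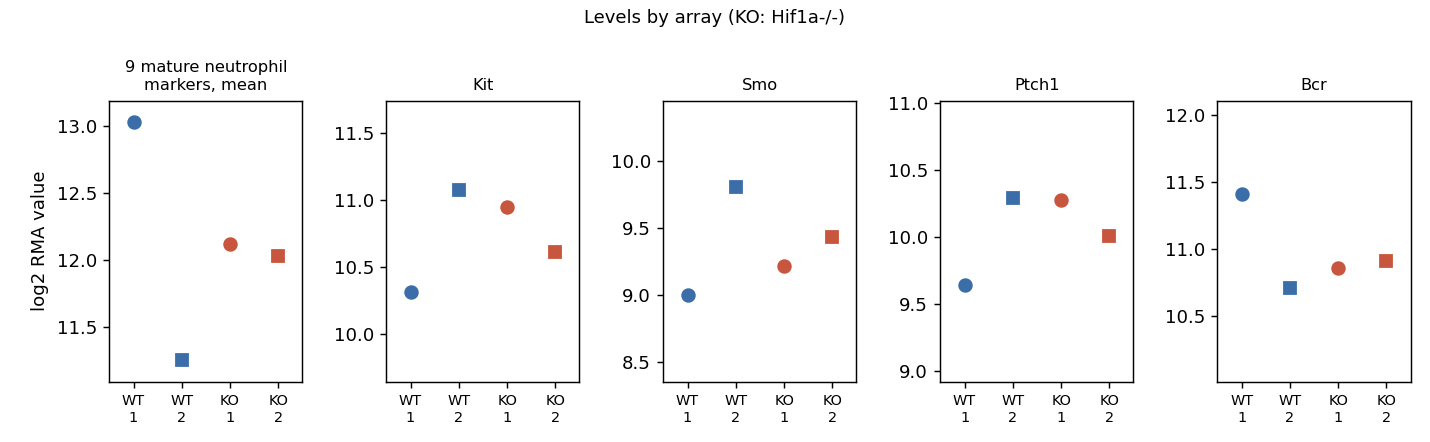
Mean of the 9 mature neutrophil markers and levels of Kit, Smo, Ptch1 and Bcr on each array, in log2 RMA values, with the same span of values in every panel (blue WT, red Hif1a-/-, marked KO). The neutrophil mean is 13.03 on WT replicate 1 and 11.25 on WT replicate 2, where Kit, Smo and Ptch1 are higher and Bcr is lower.

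Leaving out each array in turn changed the sign of the difference for all 9 regulators. With WT replicate 2 left out, Bcr differed by -0.52 (limma adjusted p 0.0210) and Ptch1 by 0.49 (adjusted p 0.0406), beside 7.23% of all genes called. With WT replicate 1 left out instead, the same genes differed by 0.18 (adjusted p 0.594) and -0.15 (adjusted p 0.676), beside 1.75% of all genes called. Smo differed by 0.33 without WT replicate 2 and by -0.48 without WT replicate 1, with limma adjusted p of 0.198 and 0.102. In these fits the lone WT array is assumed to vary as the Hif1a-/- arrays do.

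**Figure D5:**
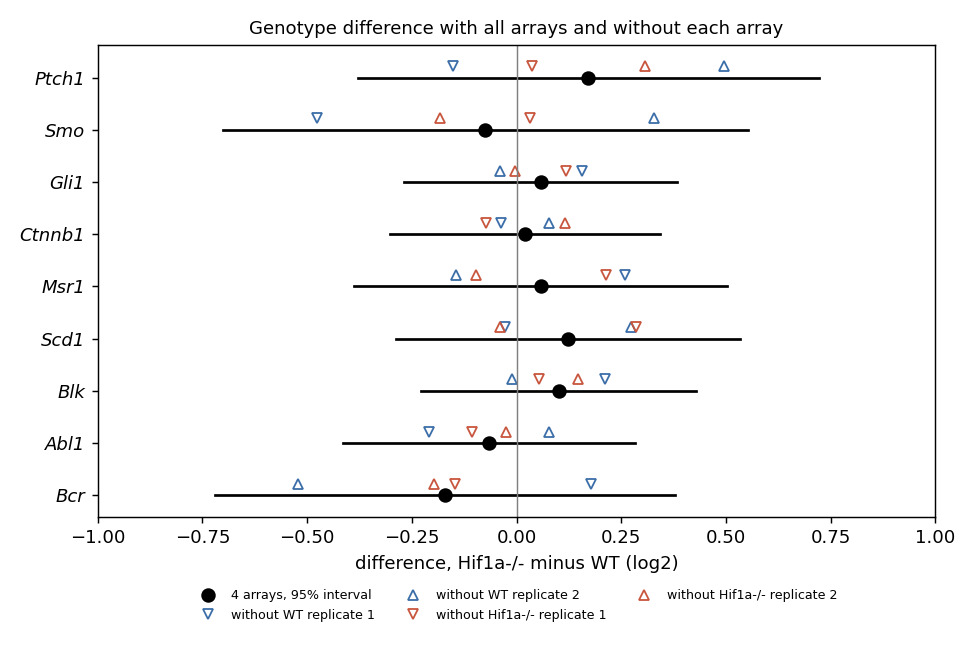
Difference between genotypes (Hif1a-/- minus WT, log2) for each of the 9 genes, with all 4 arrays and its 95% limma interval (black) and without each array in turn (open triangles). All 9 intervals include 0, and the triangles of every gene lie on both sides of 0.

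For the genes whose 4 values spanned at least 0.5, the genes with the most alike values were sought, by the root mean square distance between values centred on each gene's mean over the 4 arrays. Smo lay nearest to Afap1l1 (0.021), Ppp1r13b (0.022) and Gpr132 (0.025). Ptch1 lay nearest to Htatsf1 (0.011), Eef1aknmt (0.013) and Ddx51 (0.014), and Bcr to Dhrs7 (0.012), Plekhg1 (0.024) and Gadd45g (0.028). With 4 arrays such likeness is common: 194 genes lay within 0.1 of Smo, 739 of Ptch1 and 218 of Bcr, out of 16934 compared.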

How the data were processed

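Total RNA of the 4 sorted samples was measured on Affymetrix whole-transcript arrays. The authors deposited log2 expression values for 35556 probe sets, made with Affymetrix Expression Console 1.1 and RMA, per the submitters' processing notes. Its other options: not given in the sources used here. RMA scales out changes of total RNA per cell. Of the probe sets 21789 carried 1 gene symbol in the platform annotation, 1621 several and 12146 none here. The probe set with the highest mean represented each of 19938 genes, and RefSeq (GRCm38.p6) held 19856 of them by Entrez number, with 0 symbols changed.

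All genes were tested on all 4 arrays with limma 3.58.1 (lmFit, eBayes; R 4.3.3) and genotype as single term (2 residual and 4.46 prior degrees of freedom) and Benjamini-Hochberg adjustment over all genes at 0.05, and the procedure was tested on simulated data. The number of arrays limits the precision: the median standard error was 0.14 (log2).

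The 9 genes and the pathway and marker lists were chosen with earlier results of these data known. Named were the 9 genes, pathway genes with an unadjusted p under 0.05 or else the 3 smallest p of a list, close paralogs, the highest and the most different gene of each marker list, and the 3 genes most alike to a regulator spanning at least 0.5, without small RNAs, olfactory or vomeronasal receptors and predicted or unnamed transcripts. Alternatives were filters on dim genes, 2 further normalizations, a floor, variance trends, the mean of all probe sets, a replicate block and leaving out each array.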

Additional observations from a re-analysis of the deposited data

How the results depend on the processing

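Of 77 differences of the 9 regulators under the alternatives other than leaving out an array, 74 kept their direction and their side of the threshold. Of the 9, the filter at the 25th percentile kept 8 (all but Msr1) and that at the median 5 (also without Blk, Scd1 and Gli1). The exceptions in direction were Msr1 after a second quantile normalization (-0.0021) and Ctnnb1 with centred array medians (-0.0053), and Msr1 had no difference (0) with the floor at the 25th percentile, below which all its values lie. With the replicate number as a replicate block, 47 of all genes passed an adjusted p of 0.05, where 0 did without it, and none was 1 of the 9. The numbers share no stated animal or day, and the deviations of same-numbered arrays had a correlation of -0.0072 over 19938 genes. A variance trend gave 1 call over all genes and a robust trend 2, and an unadjusted p under 0.05 was met by 334 genes. Leaving out each array in turn gave 2 to 1442 calls over all genes. The differences then ran from -0.14 to 0.26 for Msr1, -0.011 to 0.21 for Blk, -0.039 to 0.28 for Scd1, -0.074 to 0.11 for Ctnnb1, -0.48 to 0.33 for Smo, -0.15 to 0.49 for Ptch1, -0.040 to 0.16 for Gli1, -0.21 to 0.077 for Abl1 and -0.52 to 0.18 for Bcr. List medians then ran from -0.012 to 0.090 for the Hedgehog pathway, -0.027 to 0.095 for fatty acid genes, -0.085 to 0.024 for Src family kinases, -0.094 to 0.090 for scavenger receptors and -0.099 to 0.013 for Abl and Bcr signalling, while the Wnt list and the list of genes tied to Blk, Msr1 or Scd1 kept their sign. Fewer arrays were left in these fits. With 2 arrays a group, the intervals of all 9 genes included 0. The dim signal of Msr1 limits that gene further, and Blk, Scd1 and Gli1 also lay below the median level.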

Other observations

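Ly6g, Igll1 and Mmp8, markers of other cells, had wider gaps within WT than from WT to Hif1a-/- cells, while Pecam1, Bcl11b and Cd79b did not. Ly6g, a neutrophil surface antigen, read 13.10 and 10.64 on WT replicates 1 and 2 and 11.74 and 11.64 on Hif1a-/- replicates 1 and 2. Igll1, a surrogate light chain of early B cells, read 10.98 and 9.07 in WT and 9.83 and 8.52 in Hif1a-/- cells. The granule gene Mmp8 differed by -0.32 between genotypes, and by -1.60 without WT replicate 2 and 0.96 without WT replicate 1. Pecam1, an endothelial marker that stem cells also carry, read 11.01 on both WT arrays and 10.58 and 10.65 on the Hif1a-/- arrays, with an unadjusted limma p of 0.0149. Its difference of -0.40 stayed between -0.43 and -0.36 when each array was left out. In the T cell list Bcl11b differed by 0.23, and in the B cell list Cd79b by -0.19 (-0.10 without Hif1a-/- replicate 2), both without overlap of the genotypes, at limma p of 0.108 and 0.186, unadjusted.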
